A study of Mus musculus with 16 samples.

Results

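The regions described here carried an H3K27ac peak in macrophages treated with IFNγ for 1 h and in none of the other 3 conditions of the experiment. Peaks of the 4 lists were merged wherever they overlapped by at least 1 bp, which gave 55218 regions, and those with a peak from IFNγ and none from Control, PJ34 or IFNγ+PJ34 were kept. The rule left 2250 regions, 4.07% of all merged regions (exact 95% interval 3.91 to 4.24) and 7.1% of the 31675 regions with an IFNγ peak (6.82 to 7.39). Every one of them held exactly 1 IFNγ peak. They were chosen by the presence and absence of peaks in these same lists, so presence, score, fold enrichment and width are given below as descriptions only.

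The cells were bone marrow-derived macrophages (BMDMs), primary macrophages grown from the bone marrow of C57Bl6 mice of 8 to 12 weeks in DMEM with 20% FBS and LCCM. Control cells were untreated, IFNγ cells received 100 ng/mL IFNγ for 1 h, PJ34 cells received 20 µM of this PARP inhibitor, and IFNγ+PJ34 cells received PJ34 1 h ahead of the same IFNγ treatment. Each condition had 2 ChIP samples and 2 input DNA samples, 16 in all. The authors combined the 2 ChIP replicates of a condition into 1 list. Spread between replicates could therefore not be measured, and the intervals cover counting error only and treat regions as independent. Absence from a list means that no peak was called in both replicates there, and it is not a measurement of 0 acetylation. The lists hold no read counts, so the depth of the samples is unknown. The promoters of all 10 macrophage markers examined, among them Csf1r and Adgre1, had a peak in each of the 4 lists, and none of 4 fibroblast markers had one in any. Of 6 markers each of T cells and of B cells, 1 promoter had a peak in every list, and of 6 neutrophil markers 2 had one in Control, IFNγ and PJ34 and 0 in IFNγ+PJ34. Of 4 dendritic cell markers, 2 had a promoter peak in every list. Of 4 erythroid markers, 1 had one in Control, IFNγ and IFNγ+PJ34 and 2 in PJ34. Of 4 mast cell markers, 1 had one in PJ34 and 0 in the other lists. What part these other cells had in the regions was not tested.

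H3K27ac, acetylation of lysine 27 on histone H3, marks active promoters and enhancers and is laid down by p300 and CBP. IFNγ signals through JAK kinases to STAT factors, which bind the GAS element and bring these acetyltransferases to their target genes. PARP-1, the main target of PJ34, attaches ADP-ribose to proteins, many of them in the nucleus.

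To show what the regions look like, the summit base with 75 bp on each side is printed for 9 of the 11 members, among 77 picked by score, by promoter position or by nearness to a listed gene, that held a match to 1 of 6 motifs in that window. The motifs, read on both strands, were GAS (TTCNNNGAA), the ISRE core bound by interferon regulatory factors (GAAA, 2 bases of any kind, GAAA), the composite ETS-IRF site (GGAA, 2 bases of any kind, GAAA), the PU.1 site (GAGGAAGT), the AP-1 site (TGANTCA) and the C/EBP site (TTGCNNCAA). The bases are from the RefSeq GRCm38.p6 assembly (mm10), and capitals mark the matches.
Armc9 intron (chr1:86185447-86185597, plus strand): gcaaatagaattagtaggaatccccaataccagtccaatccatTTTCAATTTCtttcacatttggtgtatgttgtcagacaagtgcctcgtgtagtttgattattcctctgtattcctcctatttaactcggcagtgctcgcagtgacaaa
near Klf4 (chr4:55541376-55541526, plus strand): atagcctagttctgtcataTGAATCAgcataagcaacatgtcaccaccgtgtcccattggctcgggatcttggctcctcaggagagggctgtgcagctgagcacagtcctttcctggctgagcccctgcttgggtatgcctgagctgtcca
Stxbp3 promoter (chr3:108841154-108841304, plus strand): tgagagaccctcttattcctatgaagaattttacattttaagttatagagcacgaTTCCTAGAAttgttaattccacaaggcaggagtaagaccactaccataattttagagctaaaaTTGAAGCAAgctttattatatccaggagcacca
Parp10 intron (chr15:76238041-76238191, plus strand): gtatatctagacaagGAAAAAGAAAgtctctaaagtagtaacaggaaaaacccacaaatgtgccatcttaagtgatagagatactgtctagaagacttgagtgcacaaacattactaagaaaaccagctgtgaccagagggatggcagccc
Traf3ip2 promoter (chr10:39612467-39612617, plus strand): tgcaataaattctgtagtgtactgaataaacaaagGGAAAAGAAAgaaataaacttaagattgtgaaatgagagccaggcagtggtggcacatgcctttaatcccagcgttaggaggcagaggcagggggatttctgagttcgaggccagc
Depdc1a promoter (chr3:159495567-159495717, plus strand): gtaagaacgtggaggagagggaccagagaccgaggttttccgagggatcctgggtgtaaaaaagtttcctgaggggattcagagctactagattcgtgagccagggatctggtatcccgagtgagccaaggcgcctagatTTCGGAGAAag
near Nos2 (chr11:78918652-78918802, plus strand): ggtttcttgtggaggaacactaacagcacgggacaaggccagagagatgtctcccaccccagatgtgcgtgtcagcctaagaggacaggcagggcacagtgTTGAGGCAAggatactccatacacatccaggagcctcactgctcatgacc
near Il6 (chr5:29973939-29974089, plus strand): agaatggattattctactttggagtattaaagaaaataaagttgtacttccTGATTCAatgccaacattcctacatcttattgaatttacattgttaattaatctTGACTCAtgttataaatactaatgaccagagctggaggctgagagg
between Tvp23a and Ciita (chr16:10454183-10454333, plus strand): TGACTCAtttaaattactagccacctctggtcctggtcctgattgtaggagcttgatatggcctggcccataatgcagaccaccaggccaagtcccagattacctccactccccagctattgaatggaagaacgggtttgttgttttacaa

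Among the printed members, GAS matches occurred at the promoters of Stxbp3, a Munc18-type regulator of vesicle fusion, and Depdc1a. The ISRE core occurred in introns of Armc9 and of Parp10, a mono-ADP-ribosyltransferase. An ETS-IRF match occurred at the promoter of Traf3ip2, an adaptor of the IL-17 receptor. The sequence near Il6, the gene of the cytokine interleukin 6, held 2 AP-1 matches, 21 bp before and 33 bp after the summit. The window near Nos2, which encodes inducible nitric oxide synthase, held a C/EBP match, and those near Klf4 and between Tvp23a and Ciita each held an AP-1 match. The remaining 66 of the 77 members held none of the 6 motifs in their windows, which are narrower than the 200 bp used for the counts below.

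The members were weak and narrow peaks within the IFNγ list. Their median fold enrichment over background was 3.33 (quartiles 2.99 and 3.97, range 1.93 to 10.6), against 7.18 in the other IFNγ regions. The peak caller's −log10 p had a median of 5.95 in the members and 23.7 in the other IFNγ regions. Median width was 326 bp against 811 bp. A region with several IFNγ peaks was represented by its highest-scoring one. Over all peaks of the IFNγ list the medians were 5.51-fold and 647 bp. Regions found in another list alone were also weak and narrow. Their medians were 3.53-fold and 357 bp in Control alone, 3.17-fold and 314 bp in PJ34 alone, and 4.02-fold and 382 bp in IFNγ+PJ34 alone. Ranked within the IFNγ list by score, members had a median percentile of 17.5 (quartiles 8.38 and 29.1), the highest stood at 70.7, and 86 of 2250 were in the higher-scoring 50% of the list. A q-value of 0.01 or more, the weaker end of the caller's scale, was attached to 258 members (11.5%), against 4.38% of the whole IFNγ list.

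The share of IFNγ regions found in no other list fell with score. With the list split into 10 score classes of equally many peaks, 28.1% of the IFNγ regions in the lowest class were members, 9.95% in class 4, 2.1% in class 6 and 0 in classes 9 and 10. The other lists had more regions of their own. In Control 6513 of 38276 regions (17%) stood alone, in PJ34 4932 of 35991 (13.7%) and in IFNγ+PJ34 5758 of 34184 (16.8%), against 7.1% for IFNγ. In the lowest class, 56.2% of Control regions, 53.3% of PJ34 regions and 42.3% of IFNγ+PJ34 regions stood alone.

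**Figure D1:**
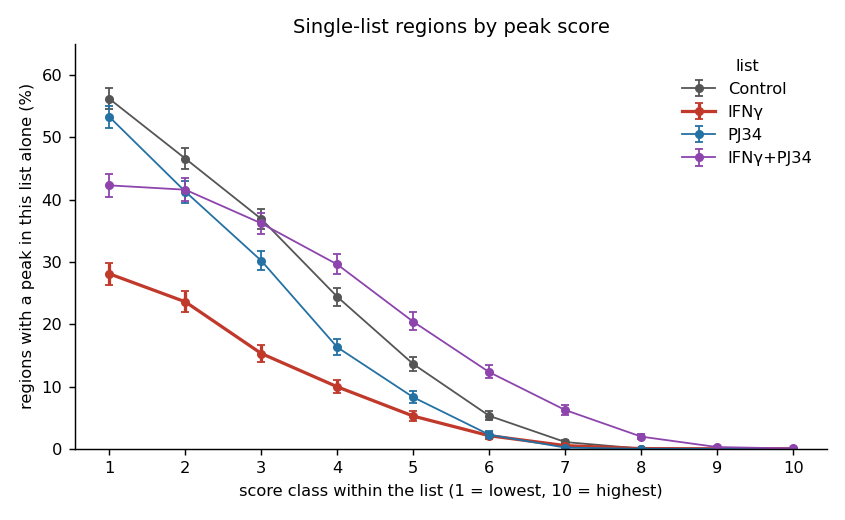
Share of the regions of each list that had a peak in that list alone (%, vertical axis) by score class within the list (horizontal axis, 10 classes, 1 lowest), with exact 95% intervals as bars. The IFNγ points lie lowest in classes 1 to 5, starting at 28.1% and reaching 0 in classes 9 and 10.

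Many members lay next to acetylated sites of the other conditions. The nearest peak of any other list was within 1 kb of 1143 members (50.8%, 48.7 to 52.9), within 100 bp of 208 (9.24%) and within 10 kb of 77.2%, with a median gap of 936 bp. PJ34 was the list with the nearest peak for 941 members, Control for 669 and IFNγ+PJ34 for 630, and 10 were ties. By median gap, PJ34 peaks were 2656 bp away, Control peaks 4381 bp and IFNγ+PJ34 peaks 4900 bp. The same 1 kb share was 48% for regions in Control alone, 56.6% for PJ34 alone and 35.1% for IFNγ+PJ34 alone, so members were nearer to other lists' peaks than the regions found with the inhibitor and IFNγ together. Regions shared by all 4 lists lay within 1 kb of 465 members (20.7%), against 26.4% of the regions in Control alone, 30.9% in PJ34 alone and 16.3% in IFNγ+PJ34 alone. At the other end, 513 members had no peak of any other list within 10 kb.

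**Figure D2:**
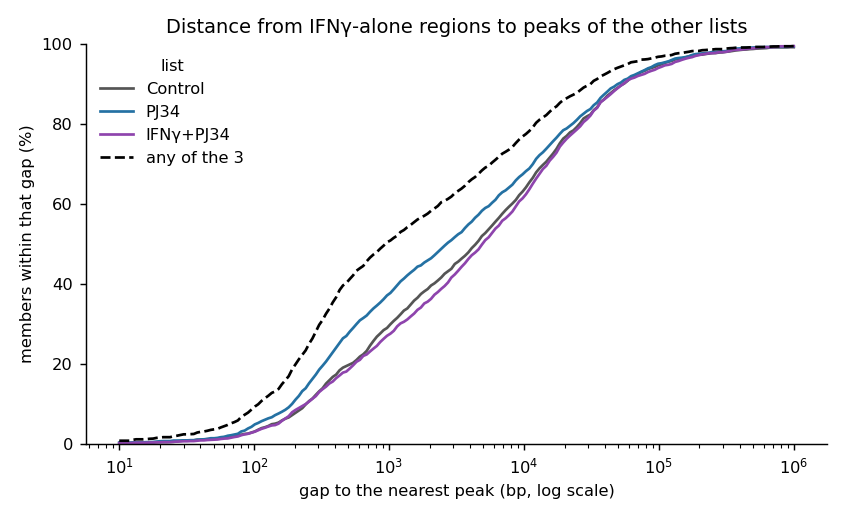
Cumulative share of the 2250 members (%, vertical axis) by gap to the nearest peak of each other list (bp, log scale, horizontal axis); the dashed line takes the nearest of the 3 lists. PJ34 lies above Control and IFNγ+PJ34 around 1 kb, where the shares are 37.5%, 29.6% and 27.4%.

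At the edge of the rule, 19 members lay within 10 bp of a peak of another list. Members in introns of Tacc1 and Znrf1 touched a Control and an IFNγ+PJ34 peak without sharing a base, and had 3.26-fold and 3.18-fold enrichment. Just outside, an IFNγ peak near Zfp217 with 3.85-fold enrichment overlapped a Control peak by 7 bp, and a peak at the Rasd2 promoter with 2.73-fold enrichment overlapped a Control peak by 14 bp. Of 3111 regions made of 1 IFNγ peak and 1 peak of another list, 47 rested on an overlap of 100 bp or less.

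Members were distal sites, mostly in introns. Summits lay in an intron of a protein-coding gene in 1256 members (55.8%, 53.7 to 57.9), between genes in 879 (39.1%, 37 to 41.1), in an exon in 59 (2.62%) and within 1 kb of a start site, here called a promoter, in 56 (2.49%, 1.89 to 3.22). Promoters made up 35.5% of the other IFNγ regions and 12.7% of them once their score classes were weighted to match those of the members. The promoter share was also above that of the members in the regions of Control alone (5.91%, 5.35 to 6.51) and PJ34 alone (5.78%, 5.14 to 6.47), whose intervals did not overlap that of the members, while for IFNγ+PJ34 alone (3.61%, 3.15 to 4.13) the intervals overlapped. Members had the largest intron share of the 4 single-list classes, which in the other 3 ran from 49.8% to 50.8%. Their interval lay above those of the other 3. It overlapped that of the regions in Control and IFNγ only, 54.6% (50.5 to 58.7). Of the intergenic members, 129 (14.7%) were inside a long noncoding gene.

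The median distance from a member to the nearest start site was 23762 bp, against 8127 bp for the other IFNγ regions. It was 24912 bp for IFNγ+PJ34 alone, 24333 bp for IFNγ and PJ34 only, 19078 bp for PJ34 alone and 18918 bp for Control alone. A start site lay within 10 kb of 27.6% of members (25.8 to 29.5), of 53% of the other IFNγ regions and of 36.8% of these after score weighting. The share was also 27.6% in IFNγ+PJ34 alone, and 28.5% in IFNγ and PJ34 only, 34.5% in Control alone and 34.8% in PJ34 alone. Sequence that is repeat-masked in the assembly covered 50% or more of the 200 bp around the summit in 17.2% of members (15.6 to 18.8), against 8.42% of the other IFNγ regions, 11.5% after weighting, 12.7% (11.9 to 13.6) in IFNγ+PJ34 alone, 14.2% (13.3 to 15) in Control alone and 15.5% (14.5 to 16.5) in PJ34 alone. This repeat share was 16% (14.1 to 17.9) in IFNγ and PJ34 only and 14.4% (12.5 to 16.5) in IFNγ and IFNγ+PJ34 only. Both intervals overlapped that of the members, and Control and IFNγ only had 11.6% (9.17 to 14.5). The median GC content of the 200 bp around the summit was 44% in members and 50% in the other IFNγ regions. In IFNγ+PJ34 alone it was also 44%, in PJ34 alone 45% and in Control alone 47%. No member lay on chromosome Y, and on the other chromosomes members made up between 4.91% (X) and 10% (13) of IFNγ regions.

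**Figure D3:**
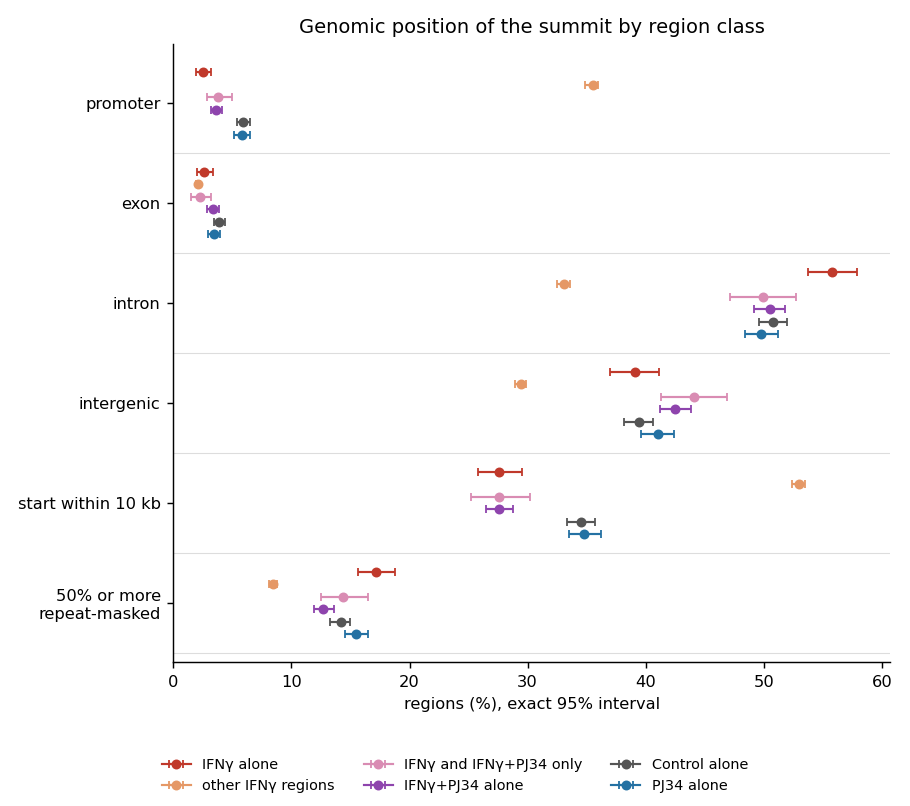
Share of regions (%, horizontal axis) by position of the summit, closeness to a start site and repeat content, for members and 5 other classes, with exact 95% intervals as bars. Among the classes shown, members (red, top of each group) have the lowest promoter share, 2.49%, and the highest intron share, 55.8%. Regions of Control and IFNγ only, with 54.6% in introns, are not shown.

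GAS, the element bound by STAT factors, was not more frequent at member summits than in IFNγ regions of like score. It was found in the 200 bp around the summit of 145 members (6.44%, 5.46 to 7.54), against 5.45% of the other IFNγ regions, 6.52% of these after score weighting and 5.84% of all regions. Regions with peaks in both IFNγ-treated conditions and no other held it in 7.99% (6.56 to 9.62). The stricter form TTCCNGGAA occurred in 8 members (0.356%, 0.154 to 0.699) and in 1.19% (0.666 to 1.95) of the regions shared by both IFNγ-treated conditions. A control motif with the ends exchanged, GAANNNTTC, occurred in 6.04% of members (5.1 to 7.11), close to the GAS share.

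Over whole peaks, GAS had 0.379 matches per kb in members (exact Poisson 95% interval 0.338 to 0.422) and 0.34 in the other IFNγ regions. The density was 0.609 (0.555 to 0.667) in sites shared by the 2 IFNγ-treated conditions alone and 0.439 (0.414 to 0.465) in IFNγ+PJ34 alone, and lower in PJ34 alone, 0.328 (0.302 to 0.356), and Control alone, 0.285 (0.266 to 0.306). The members' interval thus lay above that of Control alone and overlapped that of PJ34 alone. It lay below that of the sites that both IFNγ-treated conditions shared. Regions of IFNγ and PJ34 only had 0.385 (0.34 to 0.436). The control motif GAANNNTTC had 0.293 (0.258 to 0.332) in members and 0.249 (0.23 to 0.268) in Control alone, with intervals that overlapped. GC content was 43.4% over the members' peaks and 46.5% over those of Control alone, and its part was not tested. The strict form had 0.032 matches per kb in members (0.0211 to 0.0466) and 0.107 (0.0846 to 0.132) in those shared sites. Among the members, GAS was present at the summit in 34 of the 750 highest-ranked (4.53%), 57 of the middle 750 (7.6%) and 54 of the lowest 750 (7.2%).

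AP-1, the site of FOS, JUN and BATF factors, was found at the summit of 7.02% of members (6 to 8.16), 4.69% of the other IFNγ regions, 6.32% of these after score weighting and 5.21% of all regions. Its density over whole peaks, 0.405 matches per kb (0.363 to 0.45), was above that in IFNγ+PJ34 alone, 0.315 (0.294 to 0.337), and in Control alone, 0.311 (0.29 to 0.333), with intervals that did not overlap, while that of PJ34 alone, 0.338 (0.311 to 0.365), did overlap. Regions found in IFNγ and PJ34 only had a higher AP-1 density than the members, 0.559 (0.503 to 0.618). Control and IFNγ only, 0.414 (0.336 to 0.504), and IFNγ and IFNγ+PJ34 only, 0.359 (0.318 to 0.404), overlapped the members. The other IFNγ regions had 0.345 (0.339 to 0.351). The ISRE core was found in 3.56% of members, 3.28% of other IFNγ regions after weighting and 2.73% of all regions, and ETS-IRF in 1.87%, 2.46% and 1.92%. The C/EBP site occurred in 1.69% of members and 1.51% of all regions. RUNX (TGTGGT) occurred in 16.4% of members and 13.9% of all regions, the PU.1 site in 0.889% and 1.19%, and the NF-kB core (GGGA, 4 bases of any kind, CC) in 6.89% and 10.6%. The GC box CCGCCC, common in CpG-rich promoters, occurred in 2.49% of members and 10.6% of all regions. An ETS-IRF and an ISRE match can share bases, and every match of the strict GAS form is also a GAS match.

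**Figure D4:**
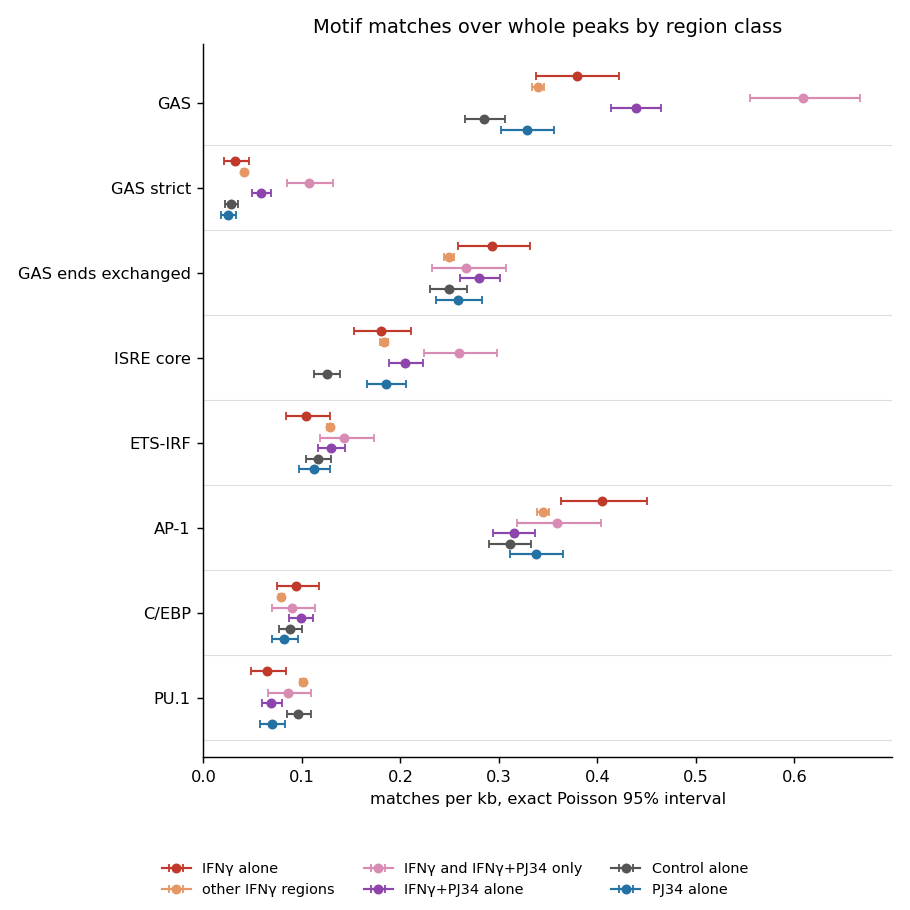
Motif matches per kb of peak (horizontal axis) with exact Poisson 95% intervals, for members and 5 other region classes. For GAS, members (red, 0.379) lie between Control alone (0.285) and the sites that both IFNγ-treated conditions shared (0.609). Their GAS interval overlaps that of PJ34 alone (0.328), and for AP-1 their density is 0.405.

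The strongest members were intronic and intergenic peaks. Of the 15 with the highest score, 8 were in introns and 7 between genes, fold enrichment ran from 7.25 to 10.6, none held a GAS match at its summit, and 7 had no peak of another list within 10 kb. The first was in an intron of Ppp2r2a, a regulatory subunit of protein phosphatase 2A, at chr14:67063608-67064413, with 10.6-fold enrichment and score percentile 70.7. Its nearest peaks in Control, PJ34 and IFNγ+PJ34 were 6.12, 6.01 and 6.01 kb away. Next came an intron of Ralgapa2, a GTPase-activating protein for Ral, at chr2:146403227-146403794, also with 10.6-fold enrichment. The nearest peak of another list was 36.8 kb away. A member near Mt4, a metallothionein gene, at chr8:94134900-94135789, had 8.42-fold enrichment and lay 2.12 kb from its start, with the nearest peak of another list 35.3 kb away. In contrast, the members in introns of Wdfy4, which dendritic cells need for cross-presentation, and of Dock4, a Rac activator, had 8.87-fold and 7.76-fold enrichment but lay 202 bp and 270 bp from a peak of another list. An intron of Sp100, an interferon-inducible nuclear body protein, held a member with 7.25-fold enrichment at chr1:85664244-85664827, 11.4 kb from the nearest peak of another list. The remaining 9 had 7.52-fold to 9.72-fold enrichment. Introns of Osbpl8, Armc9 and Gpat3 held some of them. The others lay between genes, and the nearest start was that of Tarm1 (33.5 kb), Etnk1 (17.9 kb), Mtx3 (16.5 kb), Klhl6 (70.5 kb), Lrrc8d (79.6 kb) or Lacc1 (133 kb).

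The 10 promoter members with the highest score had 4.18-fold to 5.14-fold enrichment, below the 15 strongest members, and 7 of them were within 1 kb of a peak of at least 1 other list. The Tnfaip6 promoter member (chr2:52037512-52037887), at the gene of the hyaluronan-binding protein TSG-6, had 4.84-fold enrichment and its nearest peak of another list 34.5 kb away. The Lrrtm2 promoter member had 4.69-fold enrichment with the nearest other peak 94.7 kb away. A member 0.645 kb from the start of Slamf7, a receptor of the SLAM family, at chr1:171653466-171653949, had 4.84-fold enrichment and a PJ34 peak 1182 bp away. The other promoter members in order of score were at Nhsl1, Stxbp3, Bicdl1, Galm, Traf3ip2, Chac1 and Depdc1a. At Stxbp3 and Galm all 3 other lists had a peak within 119 bp, whereas the Nhsl1 and Chac1 members were near a PJ34 peak only (268 bp and 77 bp) and the Depdc1a member near a Control peak only (103 bp).

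Some members came in groups. Another member's summit lay within 5 kb of 494 members (22%) and within 50 kb of 881 (39.2%). Introns with members belonged to 934 genes, of which 205 held 2 or more members, 67 held 3 or more and 25 held 4 or more. The densest group was 9 members over 22.8 kb of Osbpl8, which encodes an oxysterol-binding protein, at chr10:111235871-111258693. In that stretch the IFNγ list had 14 peaks covering 11.3 kb, PJ34 5 peaks covering 2.67 kb, Control 3 covering 0.998 kb and IFNγ+PJ34 1 of 0.848 kb, and no region was shared by all 4. Of the 14 IFNγ peaks, 9 were the members themselves. Members are IFNγ peaks absent from the other lists by the rule. Part of the excess of IFNγ peaks, here and in the groups below, is therefore set by the rule. The members there had 2.43-fold to 9.72-fold enrichment.

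At Pla2g4a, the gene of cytosolic phospholipase A2, 8 members lay over 27.5 kb at chr1:149937630-149965156. There the IFNγ list had 16 peaks covering 19.5 kb, but Control had 12 covering 12.8 kb, PJ34 12 covering 13.3 kb and IFNγ+PJ34 10 covering 11.7 kb. Of the 13 regions in this stretch 5 were shared by all 4 lists, so these members lay between and beside sites marked in every condition. Between Cacng6 and Tarm1, a receptor of the leukocyte immunoglobulin-like family, 8 members lay over 65.1 kb among 22 IFNγ, 18 PJ34, 15 Control and 12 IFNγ+PJ34 peaks.

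Groups of 6 were found at Sf3b3, a splicing factor subunit, and at Cblb, a ubiquitin ligase that restrains lymphocyte activation. Over 27.1 kb of Sf3b3 the IFNγ list had 10 peaks, Control 5, PJ34 3 and IFNγ+PJ34 1, and the neighbouring genes Cog4 and Il34, a CSF1 receptor ligand, counted the same 6 members within 50 kb. Over 30.6 kb of Cblb the counts were 8, 2, 4 and 4. Other groups of 6 lay near Rbm47 (23, 14, 18 and 10), Dusp22 (11, 5, 10 and 2) and Gnaq (12, 7, 9 and 7). Itgav, the integrin alpha V gene, also had 6 members within 50 kb, with 15 IFNγ, 8 Control, 17 PJ34 and 12 IFNγ+PJ34 peaks. Among further groups, noticed after their values were seen, 5 members spanned 36.4 kb between genes. The nearest start was that of Nt5e, the gene of the ecto-5'-nucleotidase CD73, 49657 bp from the closest of them. These 5 members were the only peaks that any of the 4 lists had in that stretch. The long gene Ank3 had 4 intronic members among 5 IFNγ peaks, with 1 peak in Control and none in PJ34 or IFNγ+PJ34.

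**Figure D5:**
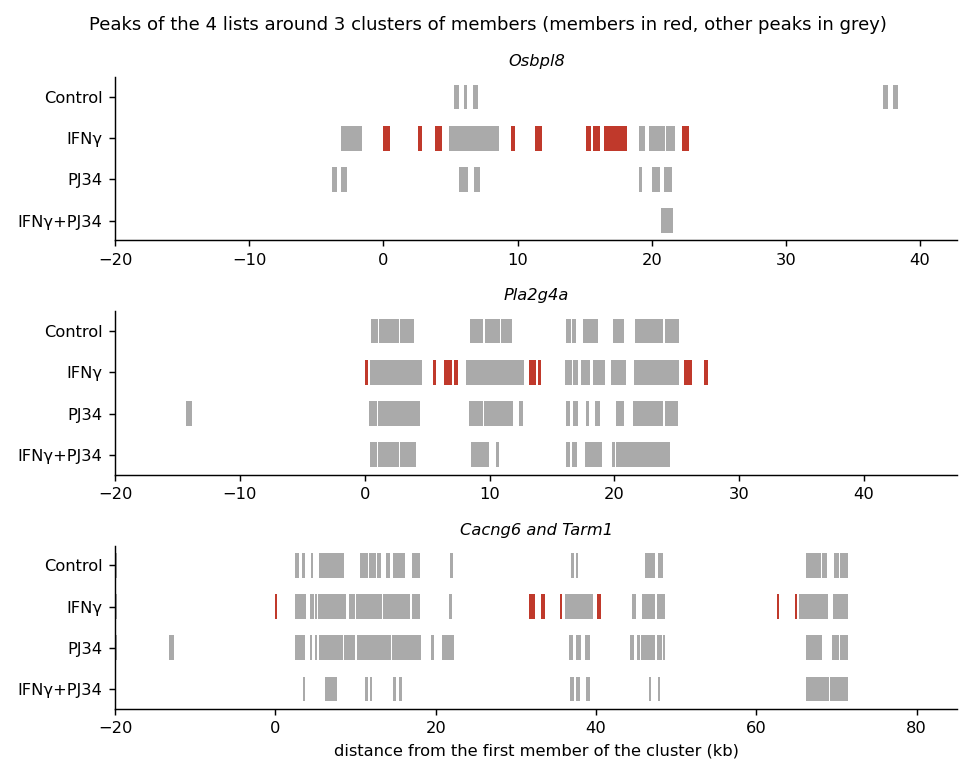
Peaks of the 4 lists (rows) around the 3 largest groups of members, by distance from the first member of the group (kb, horizontal axis); bars span the peaks, members in red, other peaks in grey. In Osbpl8 the stretch from 0 to 22.8 kb has 14 IFNγ peaks, 9 of them members, and 1 to 5 in each other list, whereas at Pla2g4a the other lists have 10 to 12. Members lack peaks of the other lists by the rule.

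A member lay within 50 kb of a start site of 2590 of 21851 protein-coding genes (11.9%). In the lists of genes that respond to IFNγ (guanylate-binding proteins, immunity-related GTPases, CXCR3 ligands, SOCS, MHC class I and II, interferon regulatory factors and antiviral genes), 17 of 75 genes did (22.7%, 13.8 to 33.8). Among the 15424 genes with any IFNγ peak within 50 kb the share was 16.8%, which is inside that interval. For comparison, 25 of the 75 (33.3%) had a region shared by IFNγ and IFNγ+PJ34 only, against 7.13% of all genes and 10.1% of genes with an IFNγ peak. A region of IFNγ+PJ34 alone was near 44 (58.7%), against 21.5% and 28.6%. Regions of PJ34 alone, found without IFNγ, were near 32 (42.7%), against 20.4% and 28.1%, and those of Control alone near 28 (37.3%), against 28.7% and 39.2%. The 17 genes shared 17 distinct members, of which 14 were within 1 kb of a peak of another list. Their median fold enrichment was 3.43 (2.43 to 6.18), and 1 of the 17 held a GAS match in the 200 bp around its summit. Of 15 housekeeping genes, 2 had a member within 50 kb (13.3%), at Ywhaz and Tubb5.

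In the signalling pathway itself, 4 of 14 genes of the IFNγ receptor, JAK and STAT list had a member (28.6%), beside 11.9% of all genes. Regions of Control alone were near 6 of the 14, those of PJ34 alone near 10 and those of IFNγ+PJ34 alone near 10. The member with the highest fold enrichment among them, 4.1, was in an intron of Stat5b, also within 50 kb of Stat5a, and lay 146 bp from a PJ34 peak. An intron of Stat4 held a member of 3.01-fold enrichment, 47.8 kb from the Stat4 start, with an AP-1 match in the 200 bp around its summit. Ptpn2, a phosphatase that acts on JAK and STAT proteins, had 2 members, of 2.84-fold and 3.08-fold enrichment. Neither Jak2 nor Ifngr1 had a member within 50 kb, and none of the 4 SOCS feedback inhibitor genes had one.

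Interferon regulatory factors, which carry the response to secondary target genes, had members at 4 of 9 genes (44.4%), beside 11.9% of all genes. Regions of Control alone were near 6 of the 9, those of PJ34 alone near 3 and those of IFNγ+PJ34 alone near 3. The member 1.11 kb from the start of Irf8, the factor that guides myeloid differentiation, at chr8:120734871-120735404, had 6.18-fold enrichment and was the strongest near any gene of these lists. Peaks of the other lists were close to it, at 148 bp in IFNγ+PJ34, 261 bp in PJ34 and 327 bp in Control. Irf1, an early target of IFNγ signalling, had members 8.41 kb and 10.3 kb from its start, with 3.4-fold and 2.43-fold enrichment. The second of them was 27 bp from an IFNγ+PJ34 peak. Irf4 had 3 members, including a promoter member of 2.87-fold enrichment and a distal member of 4.14-fold, and within 50 kb of Irf4 there were 5 IFNγ peaks, 2 in Control, 2 in PJ34 and 3 in IFNγ+PJ34. Irf7 had a single member, of 3.83-fold enrichment, 46.7 kb away.

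Cxcl9 and Cxcl10, chemokines that attract T cells through CXCR3, shared 2 members. The member at chr5:92329346-92329695, 1.36 kb from the start of Cxcl9, had 3.76-fold enrichment and a GAS match in the 200 bp around its summit. It lay 448 bp from an IFNγ+PJ34 peak, 1124 bp from a PJ34 peak and 2444 bp from a Control peak. The other, 2.34 kb from the start of Cxcl10, had 3.29-fold enrichment and was 84 bp from an IFNγ+PJ34 peak. Within 50 kb of Cxcl10 there were 12 IFNγ, 16 IFNγ+PJ34, 11 PJ34 and 7 Control peaks. For both members the nearest peak of the other 3 lists was thus from IFNγ+PJ34.

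The immunity-related GTPases Igtp and Irgm2, which attack vacuoles of intracellular pathogens, shared a member of 3.43-fold enrichment, 1.77 kb from the Igtp start and 175 bp from an IFNγ+PJ34 peak. None of 10 guanylate-binding protein genes and none of 22 antiviral genes had a member within 50 kb, beside 11.9% of all genes. Regions of IFNγ and IFNγ+PJ34 only were near 8 of the 10 and 4 of the 22, beside 7.13% of all genes. Those of IFNγ+PJ34 alone were near 5 of the 10 and 13 of the 22, beside 21.5%. In these counts 1 region can serve several neighbouring genes. The CC chemokine genes Ccl7, Ccl8 and Ccl12 shared 1 member of 2.56-fold enrichment, at score percentile 0.8.

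At antigen presentation genes, members were near 3 of 9 class II and 6 of 14 class I and immunoproteasome genes. These shares, 33.3% and 42.9%, stood beside 11.9% of all genes. Regions of Control alone, PJ34 alone and IFNγ+PJ34 alone were near 7, 8 and 5 of the class II genes. Each of these classes was near 8 of the class I and immunoproteasome genes. Ciita, the master activator of MHC class II, had 4 members within 50 kb, 2 of them in its introns and 2 toward Tvp23a, with 3.01-fold to 4.14-fold enrichment. The strongest, at chr16:10485990-10486223, was 2.2 kb from a Ciita start, and all 3 other lists had a peak within 256 bp. A single member at chr17:34218861-34219315, with 3.57-fold enrichment and the nearest peak of another list 12883 bp away, was near the peptide transporter genes Tap1 and Tap2, the immunoproteasome genes Psmb8 and Psmb9, and H2-Ab1 and H2-Ob. The class I heavy chain gene H2-D1 had a member of 3.82-fold enrichment and B2m, which encodes its light chain, a member of 2.95-fold, 54 bp from a Control peak.

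Among other genes of macrophage activation, Nos2 had a member 2.06 kb from its start with 3.41-fold enrichment, at chr11:78918612-78918846. Of 11 proinflammatory cytokine genes 6 had a member within 50 kb (54.5%), beside the 11.9% of all genes and 16.8% of genes with an IFNγ peak, but regions of Control alone were near 8 of the 11 and those of PJ34 alone near 9. The member counted for Tnf, 44.3 kb from its start in an intron of Ddx39b, is the one of 3.82-fold enrichment given for H2-D1. The other values were 3.4-fold near Il1a, 3.13-fold near Il6, 2.73-fold near Il18, 2.87-fold near Il27 and up to 3.29-fold near Il15. Among 12 AP-1 and ATF genes 7 had a member (58.3%), while 8 had a region of Control alone and 6 of PJ34 alone. The strongest of these members was in an exon of Batf2, an IFNγ-inducible factor, with 4.74-fold enrichment. Of 10 NF-kB genes Nfkbib alone had one, of 4.28-fold.

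In the PARP family, the target class of the inhibitor, 5 of 16 genes had a member (31.2%), beside 11.9% of all genes. Regions of Control alone were near 11 of the 16, those of PJ34 alone near 4 and those of IFNγ+PJ34 alone near 9. The highest fold enrichment, 4.42, was in the Parp10 intron printed above, 3429 bp from the nearest peak of another list. Parp9 and its partner Dtx3l shared a member of 4.21-fold enrichment with Parp14, 156 bp from an IFNγ+PJ34 peak, and Parp14 had a second of 2.83-fold in its own intron. Tnks2, a tankyrase, had a member of 3.01-fold, and Parp1 had none. Lineage regulators had members at 6 of 14 genes (42.9%), beside 11.9% of all genes. Regions of Control alone were near 7 of the 14, those of PJ34 alone near 8 and those of IFNγ+PJ34 alone near 5. Fold enrichment of the members was 5.96 near Cebpd, 5.24 near Klf4 and 5.08 in Runx1. It was 4.28 near Bhlhe40, up to 3.99 in Mitf and 3.43 in Pparg.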

How the data were processed

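H3K27ac ChIP-seq was carried out in BMDMs under 4 conditions, with 2 ChIP and 2 input samples each, 16 in all, grouped by their titles. The authors aligned reads to mm10 with Bowtie, called peaks in each replicate with MACS against input at p = 0.01, and kept peaks found in both replicates with bedtools, so each deposited file is 1 list per condition. Every peak has, as deposited by the authors, a whole-number score, a fold enrichment (a ratio over local background), a −log10 p, a −log10 q and a summit position. Depth is unknown from these lists.

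Lists were merged with Python 3.11.15 (pandas 2.3.3, numpy 2.4.6), with touching peaks kept apart. Score ranks used ties broken by −log10 p and fold. Summits were placed on GENCODE M21 protein-coding genes (promoter within 1 kb), and sequence was read from RefSeq GRCm38.p6, which has the same build. For a region with no IFNγ peak, the summit came from its IFNγ+PJ34, else Control, else PJ34 peak. Score weighting averaged the other IFNγ regions over the members' 10 score classes. Exact Clopper-Pearson intervals (scipy 1.17.1) were used for shares. With 1 list per condition there was no replicate test and no p-value was computed. Members and gene lists were chosen with earlier results of these data known. Named genes were any gene of the lists, the 15 highest-scoring members, the 10 highest-scoring promoter members and the 10 genes with most members within 50 kb, ties in alphabetical order. Groups joined members with summits up to 50 kb apart. Of 78 IFNγ-response genes, 75 matched the annotation. The functions were tested on simulated lists and sequences. Alternatives covered overlap, thresholds, list length, chromosomes, distances and windows. A few items, among them 2 of the 11 sequences, are not reported here.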

Additional observations from a re-analysis of the deposited data

How the results depend on the processing

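No paired analysis was possible because the deposited lists already merge the 2 replicates, so leaving 1 out could not be done either. Of 56 alternative values, 26 were counted as within the interval of the value as reported, 28 left it and 2 changed sign. The cause was not tested. Among the 26 is the GAS difference over whole peaks (0.0386 matches per kb), which is in another unit and was compared by sign only. As a share of all regions (4.07%) and of IFNγ regions (7.1%), members became 4.93% and 8.6% when 50% of the IFNγ peak had to be covered, 2% and 3.49% when a peak within 1 kb counted as shared, 3.89% and 6.81% at q under 0.01, 2.77% and 4.14% in the upper 50% by score of every list, 0.161% and 0.477% with the 50% limit on IFNγ peaks only, and 4.93% and 8.09% with lists of equal size. The promoter share (2.49%) was 1.26% under the 1 kb rule, 6.28% in the upper 50% by score of every list, 0 of 86 members with the 50% limit on IFNγ peaks only (0%, exact upper bound 4.2%), 1.51% within 500 bp and 6.84% within 2 kb of a start. The GAS share minus that of the other IFNγ regions (0.997 percentage points, interval -0.0505 to 2.04) was -1.26 with the 50% limit on IFNγ peaks only and -0.0762 after score weighting. The share of IFNγ-response genes near a member (22.7%) was 10.7% under the 1 kb rule and also at a distance of 10 kb, where the share of all genes was 3.08%, and 1.33% (1 of 75) with the 50% limit on IFNγ peaks only. The median score percentile (17.5) was 18.8 with 50% coverage, 19.1 under the 1 kb rule, 19.3 at q under 0.01, 56.2 and 54.9 in the restricted lists, where 50 is the lowest possible value, and 18.7 by fold enrichment. Members within 1 kb of another list (50.8%) were 24.6% in the upper 50% by score of every list and 29.1% with the 50% limit on IFNγ peaks only. With no read depth and no replicate lists, it cannot be told apart whether a weak peak was missing from a list or below its threshold.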
